A study of Homo sapiens with 6 samples.

Results

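The genes examined here, 10 of 23754 features in the deposited table, act on procollagen inside the cell. They encode the prolyl 4-hydroxylase subunits (P4HA1, P4HA2, P4HA3 and P4HB), the lysyl hydroxylases (PLOD1, PLOD2 and PLOD3), the prolyl 3-hydroxylase P3H1 with its partner CRTAP, and the collagen chaperone SERPINH1, also known as HSP47. The members were chosen by gene symbol, and each symbol matched 1 row. All 10 had enough counts to be tested, among 13991 features tested in all.

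Procollagen chains are modified and folded in the endoplasmic reticulum (ER) before they are secreted. Prolyl 4-hydroxylase is built from catalytic alpha subunits and the P4HB beta subunit, and the 4-hydroxyproline it makes keeps the triple helix stable at body temperature. Lysyl hydroxylases prepare sites for glycosylation and cross-linking, and P3H1 and CRTAP form a complex with the cyclophilin PPIB that modifies single prolines of type I collagen. SERPINH1 binds folded procollagen, keeps it from aggregating and leaves it in the Golgi. The hydroxylases all need iron, oxygen, 2-oxoglutarate and ascorbate.

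IMR-90, a line of human fetal lung fibroblasts, carried hairpin sh-2 against ZNF469 in the lentiviral vector Tet-pLKO-puro, which doxycycline switches on, and was kept in 0.5 µg/mL puromycin. The DOX+ group (3 libraries, labelled Sh-ZNF469) received 2 µg/mL doxycycline for 4 days, whereas the DOX– group (3 libraries, labelled Control) was the same line without doxycycline. The labels call the DOX– cells wild-type although, by the study's methods, they carry the hairpin too. Doxycycline and the hairpin were present together in every DOX+ library and their effects cannot be told apart here, and the series describes the libraries as technical replicates, so p-values measure only the spread between these libraries. The libraries come from 1 transduced cell line and 1 hairpin.

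Paired reads of 150 bp were made from poly(A) RNA, and the 6 libraries held 34057675 to 36120260 counts. Between 0.421% and 0.439% of these fell on the 10 genes. Levels are given in CPM, each count relative to its library's total after TMM scaling, and comparisons between genes in FPKM, the authors' value per kb of transcript. A gene was called when its Benjamini-Hochberg adjusted p in edgeR's quasi-likelihood test was under 0.05. ZNF469 itself stood at 119 ± 7.25 CPM in DOX– and 80.1 ± 0.488 CPM in DOX+ cells (SD, n = 3), or 67.5% of the DOX– level (edgeR adjusted p = 3.3e-05). Among markers of other cell types, SFTPC, PECAM1, CDH5 and LYZ had 0 counts in every library, while the summed level of 7 fibroblast markers was 26472 to 27432 CPM in DOX– and 20156 to 20802 CPM in DOX+ libraries. Of those 7, 4 were called lower (COL1A1, the most abundant, COL3A1, DCN and LUM) and 0 higher. Over all features tested, 0.715% were called lower and 0.4% higher. The summed level was 107 to 115 CPM in DOX– and 110.1 to 131 CPM in DOX+ libraries for 5 epithelial markers, 60.5 to 66.7 and 58.9 to 65.1 CPM for 3 leukocyte markers, and below 1 CPM in every library for 3 endothelial markers. The epithelial sum came from KRT18 and KRT8, with EPCAM, CDH1 and SFTPC under 1 CPM in every library, and the leukocyte sum from CD68, with PTPRC at 0 to 6 counts. Their part in the results was not tested, and in such bulk RNA fewer cells of a type and less RNA per cell cannot be told apart.

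Of the 10 genes, 1 was called higher in DOX+ cells and 1 lower. PLOD2, the lysyl hydroxylase of the collagen telopeptides, rose to 119% of its DOX– level, and SERPINH1 fell to 88.2%. The other 8 did not pass the test. Over all features, 1.12% were called, 0.4% higher and 0.715% lower. DESeq2 called 2 of the 10 higher (P4HA1 and PLOD2) and 1 lower (SERPINH1), and it gave P4HA3 no adjusted p. Of the features with an adjusted p, it called 3.32% higher and 3.3% lower. At an unadjusted edgeR p under 0.05 there were 2 higher and 2 lower (PLOD3 being the second), against 7.31% and 7.69% of all features. The median log2 fold change of the 10 genes was 0.02, against −0.0019 over all 13991 features. Meanwhile COL1A1, the alpha 1 chain of type I collagen and a client of these proteins, fell by 0.69 on the log2 scale. CPM values of the groups did not overlap for PLOD2 and P4HA1, both higher, and for SERPINH1 and PLOD3, both lower. Across all features tested, the groups did not overlap in 20.3%, of which 9.73% were higher and 10.6% lower as shares of all.

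**Figure D1:**
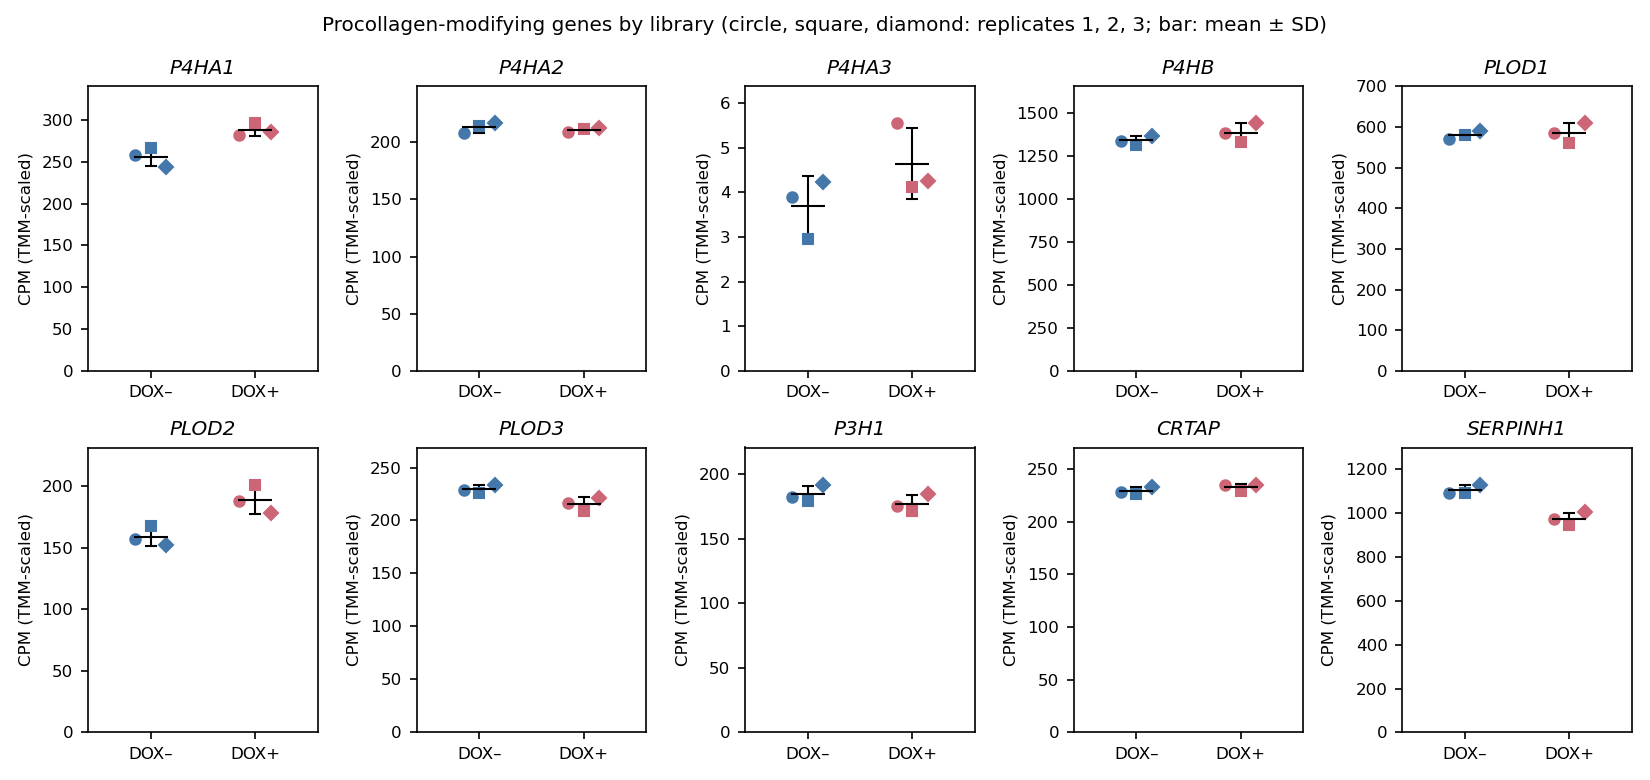
TMM-scaled CPM of each of the 10 genes by library, with DOX– libraries in blue and DOX+ libraries in red, replicates 1, 2 and 3 as circle, square and diamond, and the mean ± SD (n = 3) as black bars; each axis starts at 0. SERPINH1 lies at 1091 to 1130.1 CPM in DOX– and 947 to 1004 CPM in DOX+ libraries, and PLOD2 at 152 to 168 and 178 to 201 CPM.

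Short stretches before the start sites of the members with the smallest p-values are shown because letter patterns linked to hypoxia or heat shock occur there. They are 30 bases each, taken from RefSeq promoter sequences on GRCh38.p14 and written 5′ to 3′ on the strand of the gene. Capitals mark ACGTG or its reverse complement, a core letter pattern of hypoxia response elements, in P4HA1 and PLOD2, and, in SERPINH1, a heat shock element pattern, that is TTC, GAA and TTC with 2 free bases between neighbours.
P4HA1, chr10:73096935-73096964, minus strand, bases −98 to −69 from the start: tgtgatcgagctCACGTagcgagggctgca
PLOD2, chr3:146161367-146161396, minus strand, bases −212 to −183: cgtgagcctccaCACGTagccgcaggcagc
PLOD2, chr3:146161313-146161342, minus strand, bases −158 to −129: caaacagtccagACGTGgggcccaggaggg
SERPINH1, chr11:75562169-75562198, plus strand, bases −84 to −55: ttccaactTTCCAGAAGTTTCtcgggacgg

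Each stretch lies before the RefSeq start used here but inside an exon that GENCODE 44 annotates for the same gene. In the 250 bases before the start, searched on both strands, ACGTG was found for 3 of the 9 members with a sequence (P4HA1, PLOD2 and SERPINH1, the last only before its second start) and in 18.5% of 35116 such windows over all genes. GCGTG, the other common form of the core, was found for 6 of the 9 and in 32.2% of windows. The 6 were CRTAP, P3H1, P4HB, PLOD1, PLOD2 and SERPINH1, the last again only before its second start. The 9 members had 10 windows, so counts by gene and shares of windows are not fully alike. The heat shock pattern was found for SERPINH1 alone among the 9 and in 0.441% of windows. The ER stress response element, CCAAT and CCACG with 9 free bases between them, was in 0 of the 9 and in 0.074% of windows. These matches describe letters only. P4HA3 has no entry among these sequences.

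The prolyl 4-hydroxylase genes are described first. P4HA1 (ENSG00000122884, chromosome 10 of GRCh38, 73007217 to 73096974, minus strand, 15 exons in its canonical transcript) encodes the most widely expressed alpha subunit. Its levels were 259, 266 and 243 CPM in DOX– replicates 1, 2 and 3 and 282, 296 and 285 CPM in DOX+ replicates 1, 2 and 3. Every DOX+ library was above every DOX– library. The log2 fold change was 0.17 (standard error 0.0399, 95% interval 0.08 to 0.26), which missed the threshold with an edgeR adjusted p of 0.0684. It was past the threshold in 4 of 16 other settings, with the lowest adjusted p from DESeq2 (9.0e-04). Once the trend of counts on GC content was removed, the log2 fold change was 0.11 (edgeR adjusted p = 0.063), so this correction moved it by more than any other setting.

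P4HA2 (ENSG00000072682, chromosome 5, 132190147 to 132295315, minus strand) encodes the alternative alpha subunit that is prominent in chondrocytes and osteoblasts. It stood at 208, 215 and 217 CPM in the DOX– libraries and at 209, 212 and 213 CPM in the DOX+ libraries. The DOX+ values lay wholly inside the DOX– range, and the log2 fold change was −0.01 (95% interval −0.09 to 0.06, edgeR adjusted p = 0.90). P4HA2-AS1, a long noncoding RNA on the opposite strand, shares 548 bases of exon with it.

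P4HA3 (ENSG00000149380, chromosome 11, 74235801 to 74311640, minus strand) encodes the rarest alpha subunit and had only 104 to 198 counts per library. Its levels of 3.90, 2.96 and 4.24 CPM in DOX– and 5.55, 4.12 and 4.25 CPM in DOX+ libraries overlapped. The log2 fold change of 0.33 was the highest of the 10 but also the least precise, with a 95% interval from −0.05 to 0.71 (edgeR adjusted p = 0.41). It was 0.19 without DOX– replicate 2 and 0.18 without DOX+ replicate 1, below the value of PLOD2 in the same fits (0.29 and 0.25). Exons of PPME1, a gene on the opposite strand with 2964 to 3415 counts per library, share 166 bases with P4HA3. Whether reads were counted by strand is not given in the sources used here. Reads of the shared bases therefore cannot be told apart, here or in other members that share exon bases with a gene on the opposite strand. PPME1 stood at 88.2 ± 0.649 CPM (SD, n = 3) in DOX– and 89.6 ± 4.14 CPM (SD, n = 3) in DOX+ cells.

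P4HB (ENSG00000185624, chromosome 17, 81843159 to 81860856, minus strand) is protein disulfide isomerase as well as the beta subunit, and it had the highest level of the 10. DOX– libraries held 1334, 1314 and 1366 CPM and DOX+ libraries 1383, 1332 and 1439 CPM. DOX+ replicate 2 lay inside the DOX– range, and the log2 fold change was 0.05 (95% interval −0.02 to 0.11, edgeR adjusted p = 0.47). With the GC trend removed, P4HB was called higher at a log2 fold change of 0.09 (edgeR adjusted p = 0.0093), the only one of 16 other settings that did so.

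Lysyl hydroxylases differ in the lysines they modify. PLOD1 (ENSG00000083444, chromosome 1, 11934205 to 11975538, plus strand) encodes lysyl hydroxylase 1, which acts on lysines within the triple helix. It had 570.1, 581 and 591 CPM in DOX– and 586, 561 and 609.7 CPM in DOX+ libraries. The DOX+ libraries covered the whole DOX– range, with a log2 fold change of 0.01 (95% interval −0.06 to 0.09, edgeR adjusted p = 0.91).

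PLOD2 (ENSG00000152952, chromosome 3, 146035139 to 146163725, minus strand, 20 exons) encodes lysyl hydroxylase 2, the enzyme that acts on telopeptide lysines and so sets the type of cross-link. Its levels were 157, 168 and 152 CPM in DOX– replicates 1, 2 and 3. In DOX+ replicates 1, 2 and 3 they were 188, 201 and 178 CPM. The lowest DOX+ library was above the highest DOX– library, with means of 189 ± 11.7 CPM in DOX+ and 159 ± 7.82 CPM in DOX– cells (SD, n = 3). The log2 fold change was 0.25 (standard error 0.0504, 95% interval 0.14 to 0.36, edgeR adjusted p = 0.0325), and an exact two-sided permutation test of the CPM values gave p = 0.1, the smallest that 3 libraries against 3 allow. The call was lost in 4 fits that left out 1 library. These fits called 20 to 38 of all features higher, against 56 in the main fit. Leaving out the first or the third DOX– library gave edgeR adjusted p-values of 0.14 and 0.16, and leaving out the first or the second DOX+ library gave 0.13 and 0.086. In these 4 fits the log2 fold change lay between 0.20 and 0.25. With the GC trend removed it was 0.17 (edgeR adjusted p = 0.011).

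PLOD3 (ENSG00000106397, chromosome 7, 101205977 to 101218420, minus strand) encodes lysyl hydroxylase 3, which also carries the glucosyltransferase activity that builds hydroxylysine-linked sugars. It held 228, 226 and 234 CPM in DOX– and 216, 209 and 221 CPM in DOX+ libraries. The groups did not overlap in CPM but did in FPKM, where DOX+ replicate 3 (71.6) was above the lowest DOX– library (71.5). The log2 fold change of −0.09 (95% interval −0.17 to −0.01) did not pass over all features (edgeR adjusted p = 0.28). It was −0.03 with the GC trend removed. Exons of ZNHIT1, on the opposite strand at 1727 to 2045 counts per library, share 102 bases with PLOD3.

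P3H1 (ENSG00000117385, chromosome 1, 42746335 to 42767084, minus strand) encodes the catalytic subunit of the prolyl 3-hydroxylation complex. Its levels were 183, 179.5 and 192 CPM in DOX– and 176, 172 and 185 CPM in DOX+ libraries, with overlap. The log2 fold change was −0.06 (95% interval −0.15 to 0.03, edgeR adjusted p = 0.55). It was −0.015 with the GC trend removed and ranged from −0.09 (without DOX+ replicate 3) to −0.03 (without DOX– replicate 3, or DOX+ replicate 2) with 1 library left out. CRTAP (ENSG00000170275, chromosome 3, 33114014 to 33147773, plus strand), the non-catalytic partner that keeps P3H1 stable, stood at 228, 227 and 233 CPM in DOX– and 235, 229 and 234 CPM in DOX+ libraries. Its log2 fold change of 0.02 (95% interval −0.05 to 0.10, edgeR adjusted p = 0.80) was smaller than its standard error.

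SERPINH1 (ENSG00000149257, chromosome 11, 75562056 to 75572783, plus strand, 5 exons) was the member with the smallest p-value, rank 61 of all 13991 features. DOX– replicates 1, 2 and 3 held 1091, 1094 and 1130.1 CPM. DOX+ replicates 1, 2 and 3 held 972, 947 and 1004 CPM, all below the lowest DOX– library. The means were 1105 ± 21.9 CPM in DOX– and 974 ± 28.6 CPM in DOX+ cells (SD, n = 3), a log2 fold change of −0.18 (standard error 0.0287, 95% interval −0.24 to −0.12, edgeR adjusted p = 0.0063; exact two-sided permutation p = 0.1). It was past the threshold in 15 of 16 other settings. The exception was the fit without DOX+ replicate 1, where the log2 fold change was still −0.18 and the edgeR adjusted p 0.058. Its smallest change, −0.13, came with the GC trend removed (edgeR adjusted p = 8.4e-04).

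**Figure D2:**
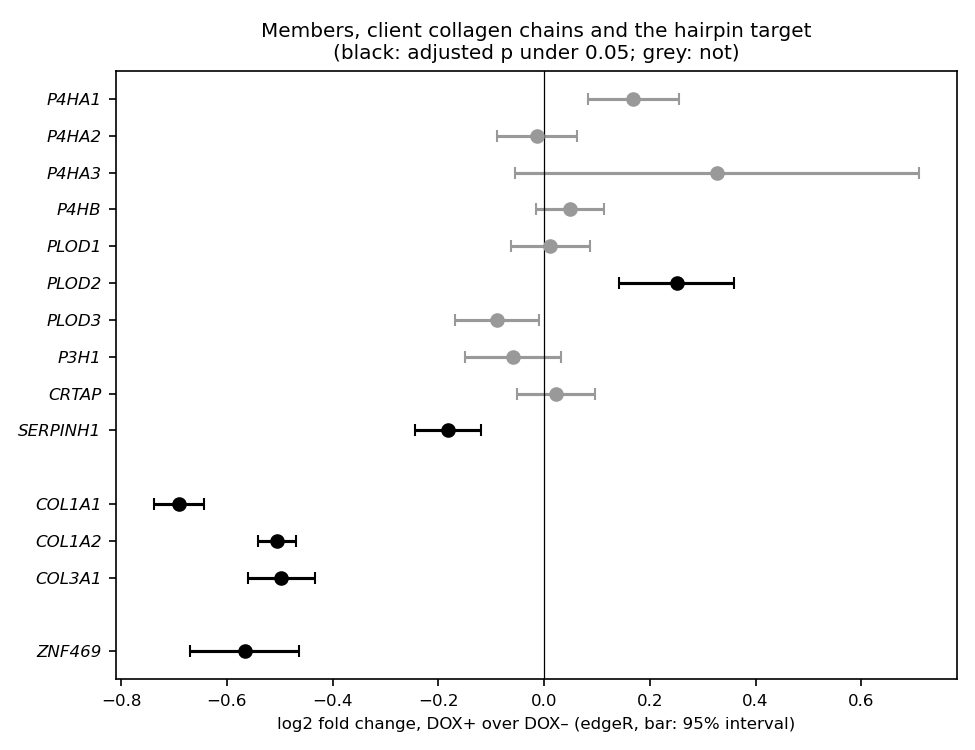
Log2 fold change of DOX+ over DOX– cells from edgeR (x axis) with 95% intervals for the 10 genes, 3 client collagen chains and ZNF469; black points have an adjusted p under 0.05 and grey points do not. SERPINH1 at −0.18 and PLOD2 at 0.25 are the only black points among the 10, and the client chains lie from −0.69 to −0.50.

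Base composition was set beside these differences. In CPM, PLOD2 and P4HA1 were the 2 members whose DOX+ values lay wholly above the DOX– values. They had the lowest GC content of the 10 canonical transcripts (37.7% and 39.7%). PLOD3, lower in CPM without overlap, had the highest (61.4%). SERPINH1, at 58.9%, was next to highest. P4HA2 and PLOD1 did not follow this order. P4HA2 had the third lowest GC content (45.0%) at a log2 fold change of −0.01. PLOD1 (58.8%), close to SERPINH1 in GC content, was at 0.01. P4HA3 (54.3%) had the highest log2 fold change, but with a standard error of 0.177 its place could not be judged. With the GC trend removed, PLOD2 (0.17), P4HA1 (0.11), SERPINH1 (−0.13), PLOD3 (−0.03) and P3H1 had smaller changes. P4HA2, P4HA3, P4HB, PLOD1 and CRTAP had larger ones. That fit still called PLOD2 and SERPINH1, but the standard error of PLOD2 fell from 0.0504 to 0.0309. It called 117 features higher and 176 lower, against 56 and 100 in the main fit. Whether GC content caused these differences was not tested.

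Per length of transcript, the members covered a wide range in DOX– cells. P4HB was first at 478 ± 7.80 FPKM (SD, n = 3) and SERPINH1 second at 433 ± 10.2 FPKM (SD, n = 3). PLOD1 followed at 184 ± 1.47 FPKM (SD, n = 3) and P4HA1 at 81.1 ± 4.48 FPKM (SD, n = 3). PLOD3 (72.6 FPKM) and P4HA2 (70.5 FPKM) were neighbours whose libraries overlapped, while every other pair of neighbours in this order was separated in all 3 libraries. Below them came P3H1 at 61.2, PLOD2 at 38.4, CRTAP at 31.3 and P4HA3 at 1.46 FPKM.

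Paralogs were next compared by their share of summed FPKM, a measure in which the scaling of a library cancels. In all 5 shares and ratios were tested, and with 3 libraries against 3 no exact permutation p can go below 0.1. P4HA1 made up 54.1%, 53.5% and 51.3% of the alpha subunit FPKM in DOX– replicates 1, 2 and 3 and 55.1%, 55.6% and 56.0% in the DOX+ libraries. The groups did not overlap, and the difference was 2.63 percentage points (exact two-sided permutation p = 0.1). P4HA2 made up 46.1% ± 1.37 in DOX– and 43.3% ± 0.314 in DOX+ cells (SD, n = 3), and P4HA3 about 1% in either group (0.957% and 1.13%). PLOD2 took 13.0%, 13.7% and 12.4% of lysyl hydroxylase FPKM in DOX– libraries and 15.3%, 16.7% and 14.2% in DOX+ libraries, a difference of 2.34 percentage points (exact two-sided permutation p = 0.1). PLOD1 kept the major share, at 62.3% ± 0.490 and 61.9% ± 1.02 (SD, n = 3), and that of PLOD3 went from 24.6% to 22.7%, without overlap.

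**Figure D3:**
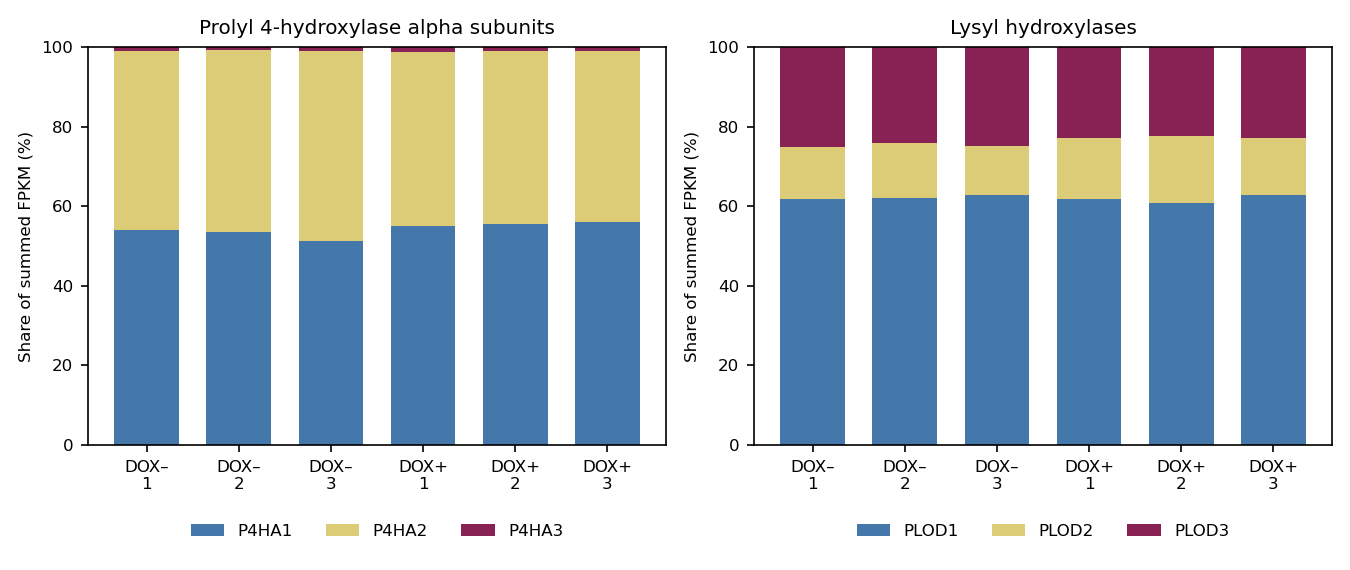
Stacked bars of the share of summed FPKM (y axis, percent) taken by each prolyl 4-hydroxylase alpha subunit (left) and each lysyl hydroxylase (right) in every library. P4HA1 takes 51.3% to 54.1% in DOX– and 55.1% to 56.0% in DOX+ libraries, and PLOD2 12.4% to 13.7% and 14.2% to 16.7%.

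Subunits of the same enzyme were compared in the same way. The log2 ratio of P4HB to the summed alpha subunits was 1.64 ± 0.0666 in DOX– and 1.62 ± 0.104 in DOX+ cells (SD, n = 3), with overlapping libraries and an exact two-sided permutation p of 0.7. The log2 ratio of P3H1 to CRTAP was 0.98, 0.94 and 0.98 in the DOX– libraries and 0.88, 0.86 and 0.91 in the DOX+ libraries. The DOX+ values lay below, by 0.08 on average (exact two-sided permutation p = 0.1).

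SERPINH1 was then set against COL1A1 (ENSG00000108821), its abundant client. COL1A1 held 15509 ± 401 CPM in DOX– and 9610 ± 277 CPM in DOX+ cells (SD, n = 3, edgeR adjusted p = 1.7e-09), and COL1A2 and COL3A1 fell by 0.50 each on the log2 scale. For every 100 FPKM of COL1A1 there were 20.4, 21.0 and 21.2 FPKM of SERPINH1 in DOX– replicates 1, 2 and 3. The DOX+ libraries had 26.2, 29.0 and 29.5 FPKM. Each DOX+ library was above each DOX– library, and the log2 ratio differed by 0.43 (exact two-sided permutation p = 0.1). SERPINH1 itself fell, and COL1A1 had the smallest p-value of all features tested. The higher ratio restates that COL1A1 fell by more, and any gene that fell less than COL1A1 would give one. It is therefore not particular to SERPINH1. From the counts rather than FPKM the difference was 0.51.

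FPKM and counts did not give the same size of change for SERPINH1 in each library. The transcript length implied by the deposited count and FPKM was 2.52, 2.56 and 2.51 kb in DOX– replicates 1, 2 and 3. It was 2.80 kb in DOX+ replicate 1 and 2.57 and 2.56 kb in DOX+ replicates 2 and 3. DOX+ replicate 1 therefore stood apart, at 349 FPKM against 373 and 393 FPKM in the other DOX+ libraries, although its count was in their range. After division by the median of each library, the highest of these lengths exceeded the lowest by 12.6% for SERPINH1. The other 9 members ranged from 0.375% (P4HA1) to 6.20% (P4HA2). A spread as large as that of SERPINH1 was found in 20.2% of 11702 features, so it was not rare in this table. In FPKM, 5 of the 10 genes were higher without overlap (P4HA1, P4HA3, P4HB, PLOD2 and CRTAP) and 1 lower (SERPINH1). The shares over all features tested were 13.7% and 6.2%, and the median feature was 0.03 higher on the log2 scale. P4HA3, P4HB and CRTAP overlapped in CPM, whereas PLOD3 overlapped in FPKM but not in CPM.

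**Figure D4:**
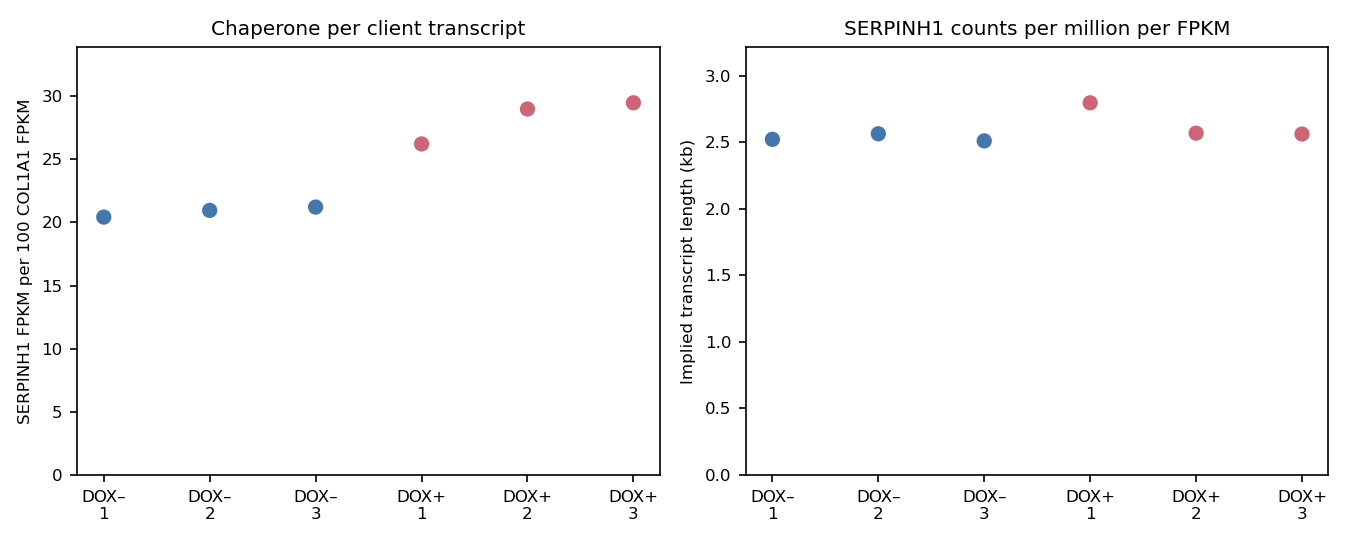
SERPINH1 FPKM per 100 FPKM of COL1A1 by library (left) and the transcript length in kb implied by the SERPINH1 count and FPKM (right), DOX– in blue and DOX+ in red, both axes from 0. The ratio is 20.4 to 21.2 in DOX– and 26.2 to 29.5 in DOX+ libraries, and DOX+ replicate 1 has the longest implied length, 2.80 kb. Both genes fell, COL1A1 by more.

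Other genes of the pathway were examined as lists. Of 9 further ER genes for collagen modification, 0 passed edgeR's test in either direction, although 7 had a positive log2 fold change. A positive value was found for 6904 of all 13991 features tested. The list holds P3H2, P3H3, P3H4, COLGALT1, COLGALT2, PPIB, FKBP10, FKBP14 and TMEM38B, and its median was 0.07. FKBP10, a prolyl isomerase that works with lysyl hydroxylase 2, had 662 CPM in DOX– and 640.4 CPM in DOX+ cells (log2 fold change −0.05, edgeR adjusted p = 0.51). PPIB, the cyclophilin of the P3H1 complex, had 470.2 and 497 CPM (log2 fold change 0.08, edgeR adjusted p = 0.34).

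In a list of 10 genes linked to procollagen export from the ER, 1 was called lower and 0 higher, and the other 9 were not called. The shares over all features were 0.715% lower and 0.4% higher. The called gene is a regulator and not part of the export machinery itself. CREB3L1, a membrane-bound transcription factor that activates collagen and secretory genes, fell from 307 to 264 CPM (log2 fold change −0.22, edgeR adjusted p = 0.0485). KDELR2, the receptor that returns ER-resident proteins, went from 454 to 478 CPM (log2 fold change 0.07, edgeR adjusted p = 0.27), and SEC13, a subunit of the COPII coat, had a log2 fold change of −0.05. The median of this list was 0.06.

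A list of 8 genes for disulfide formation in the ER held 7 relatives of P4HB in the disulfide isomerase family (PDIA3, PDIA4, PDIA5, PDIA6, ERP44, TXNDC5 and TXNDC12) and ERO1A, the oxidase that reoxidises such isomerases. All 8 had positive log2 fold changes with a median of 0.11, and 0 passed edgeR's test. Positive values were found in 6904 of all 13991 features. PDIA6 had a log2 fold change of 0.13 and PDIA3 one of 0.11, with edgeR adjusted p-values of 0.067 and 0.089. Groups did not overlap in 7 of the 8 (6 isomerases and ERO1A), all higher, where 9.73% of all features were higher without overlap.

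For related hydroxylases that use 2-oxoglutarate on other substrates, 6 of 7 listed genes were tested and 0 were called. EGLN3, the remaining 1, had 3 to 10 counts per library. ASPH, an aspartyl hydroxylase of the ER, had a log2 fold change of 0.12 (edgeR adjusted p = 0.16), and EGLN2, a prolyl hydroxylase of hypoxia-inducible factor, one of −0.02.

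P4HA1 and PLOD2 are known targets of hypoxia-inducible factor, so 11 other hypoxia-inducible genes were listed beside them. LDHA, which makes lactate, rose by a log2 fold change of 0.14 (edgeR adjusted p = 0.0056) and was the only gene of the 11 that was called. Among all features, 0.4% were called higher and 0.715% lower. PGK1, a glycolytic kinase, had a log2 fold change of 0.09 (edgeR adjusted p = 0.16). Of the 11, 7 had positive and 4 negative values, where 6904 of all 13991 features were positive and 7087 negative. Groups did not overlap in 4 that were higher (LDHA, PGK1, KDM3A and PDK1) and 2 that were lower (ADM and VEGFA). Across all features tested, 9.73% were higher and 10.6% lower without overlap. PDK1, a kinase that inhibits pyruvate dehydrogenase, had a log2 fold change of 0.22 (edgeR adjusted p = 0.081), and ADM and VEGFA had −0.20 and −0.18 (edgeR adjusted p = 0.056 and 0.11). The median was 0.09.

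Fibrillar collagen chains, the clients, gave 4 genes called lower and 0 higher of 10 tested, with a median of −0.19. The called genes were COL1A1, COL1A2, COL3A1 and COL5A2 (log2 fold change −0.34). Of all features tested, 0.715% were called lower and 0.4% higher. Neither PLOD2 nor any other member was called in the direction of the called chains except SERPINH1.

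**Figure D5:**
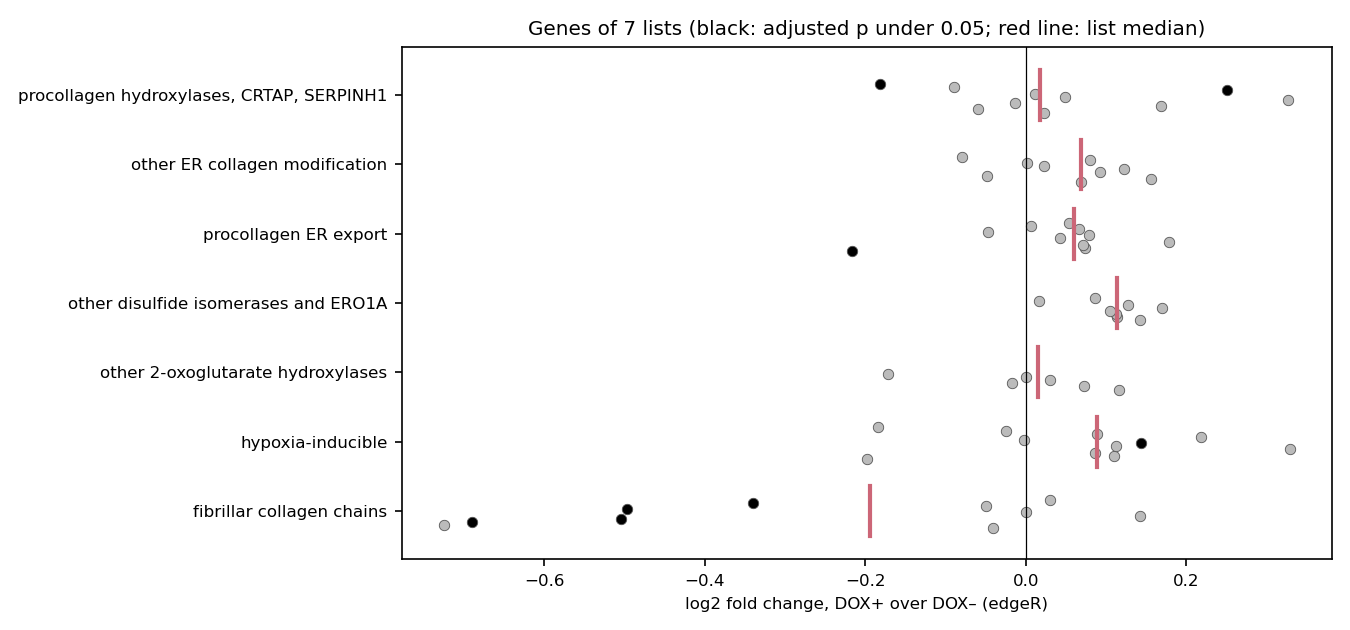
Log2 fold change from edgeR (x axis) of each tested gene in 7 lists, black where the adjusted p is under 0.05 and grey where it is not, with the median of each list as a red line. The medians lie from 0.02 to 0.11 for 6 lists and at −0.19 for the fibrillar collagen chains.

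The genes whose log2 CPM followed each called member most closely over the 6 libraries were looked up among 9138 features with more than 10 CPM. For PLOD2 they were DIPK1A, NAA50 and DYNC1LI2 (Pearson's r = 0.998, 0.996 and 0.995), with log2 fold changes of 0.15, 0.12 and 0.12. For SERPINH1 they were NID2, a basement membrane protein, SLC17A9, a nucleotide transporter, and PSMB7, a proteasome subunit (r = 0.999, 0.996 and 0.995), with log2 fold changes of −0.11, −0.21 and −0.05. With 6 points and 9138 features such values describe the profiles only, and 0 of these 6 genes passed the test themselves in edgeR.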

How the data were processed

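Poly(A)-selected RNA of IMR-90 cells was analysed in 3 DOX– and 3 DOX+ libraries, grouped by sample title. According to the study's methods and the submitters' processing notes, the authors filtered reads, aligned them to GRCh38 with HISAT2 and ran StringTie. Versions, annotation release and counting step are not given in the sources used here. The authors deposited a raw count and an FPKM value per gene and library, and 17 stray lines without values were dropped. FPKM served for shares, ratios, levels between genes, implied lengths, the overlap of groups in FPKM and the choice of list genes. GENCODE 44 gave coordinates, length and GC content.

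The counts were tested in R 4.3.3 with edgeR 4.0.16 (filterByExpr with its minimum count of 10, TMM factors of 0.988 to 1.01, quasi-likelihood test, adjusted by Benjamini-Hochberg over 13991 features). Each standard error was obtained from the log2 fold change and its F statistic. Shares and ratios were tested by exact permutation of libraries. Alternatives were other filters and scalings, DESeq2 1.42.0, limma-voom (limma 3.58.1), each library left out, the replicate number as a block, lowess trends (span 0.3) on length or GC content, and other thresholds. The fits were tested on simulated data. Depth and replicate spread left standard errors of 0.0287 to 0.0504 for every member except P4HA3. No library duplicated another (chi-square over degrees of freedom, 4.65 to 8.47 within groups).

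Named genes are the 10 members, ZNF469, client collagens, in each list the called genes (up to 4) and the 2 of highest FPKM, and the 3 genes closest in profile to each called member. ADM, VEGFA, PDK1, KDM3A, PPME1, ZNHIT1 and EGLN3 were added after their values were seen. Members and lists were chosen with earlier results of these data known.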

Additional observations from a re-analysis of the deposited data

How the results depend on the processing

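Among 160 refits of single members, 146 kept the direction and the side of the threshold. P4HA3 in DESeq2, without an adjusted p, was counted as not called. The number of members called higher, 1 as reported, was 2 without a filter on low counts, with library size scaling, with DESeq2, with the replicate number as a block, with the GC trend removed and at an unadjusted p under 0.05, and 0 at an adjusted p under 0.01. Requiring an absolute log2 fold change over 1, as the study's methods do, left 0 higher and 0 lower. The number called lower was 2 at an unadjusted p under 0.05. Leaving out 1 library gave 0 to 1 members higher and 0 to 1 lower, and the libraries concerned are named beside PLOD2 and SERPINH1. Signs changed for 3 uncalled members: P4HA2 with library size scaling (0.0078), CRTAP with the length trend removed (−0.010), and PLOD1 without DOX– replicate 1 (−0.00033) or DOX+ replicate 3 (−0.017), where its range with 1 library left out was −0.017 to 0.043. The P4HB to alpha subunit log2 ratio lay between −0.078 and 0.026 with 1 library left out, turning positive without DOX+ replicate 2, and the cause was not tested. The other 4 shares and ratios kept their direction, at 1.81 to 3.20 percentage points for P4HA1, 1.69 to 2.96 for PLOD2, −0.09 to −0.07 for P3H1 to CRTAP and 0.40 to 0.49 for SERPINH1 to COL1A1. Over all features tested, libraries with the same replicate number deviated little together (r = −0.016 to 0.093), and the numbers were not taken as pairs. In PLOD2, PLOD3, P3H1 and P4HB, however, the replicates stood in the same order in both groups. The replicate block lowered the standard error of PLOD2 from 0.0504 to 0.0309 and that of P4HB from 0.0299 to 0.0183. With the replicate block, P4HA1 was called (log2 fold change 0.17, edgeR adjusted p = 0.030), PLOD2 had an adjusted p of 0.0045 and SERPINH1 one of 0.0021. Over all features, 56 were called higher and 100 lower, against 127 and 163 without a filter, 88 and 77 with library size scaling, 266 and 265 with DESeq2, 135 and 157 with the block, and 117 and 176 with the GC trend removed. With 1 library left out, 20 to 69 were called higher and 54 to 92 lower. Scaling moved the median of all features by at most 0.02. P4HA3, at 104 to 198 counts per library, had the largest standard error of the 10.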
